A study of Mus musculus with 18 samples.

Results

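The 10 genes described here, Fos, Fosb, Junb, Egr1, Npas4, Nr4a1, Arc, Homer1, Bdnf and Dusp1, are immediate early genes or close companions of them, transcribed in neurons soon after synaptic activity. They were chosen by symbol, with earlier results of these data known, and found by Ensembl identifier. They are 10 of the 39017 gene identifiers in the deposited tables. All 10 were detected well enough to be tested in both experiments of the study. The data are RNA-seq counts from translating ribosome affinity purification (TRAP), which pulls down tagged ribosomes of a chosen cell type with the mRNA they carry, from mouse entorhinal cortex layer II neurons. In the silencing experiment 4 mice carried a vector with an shRNA against Ptbp1 and 5 a vector with a scrambled shRNA. In the overexpression experiment 5 mice carried a vector with PTBP1 (PTBP1 OE) and 4 a control vector. Every vector also carried mCherry, and both entorhinal cortices of a mouse were pooled into 1 library, 18 libraries in all. In addition 1 mouse given the Ptbp1 shRNA and 1 given the overexpression control had been left out by the submitters for want of mCherry reads. The labels give neither the transgene that tags the ribosomes nor the strain, age, sex, time after injection or condition of the mice at death, and no group was labelled as stimulated. By its tissue label each library came from hippocampus, but the series title and design give entorhinal cortex.

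Immediate early genes need no new protein synthesis for their induction: calcium entry and kinase signalling act on factors such as CREB and SRF that already sit at their promoters. Fos, Fosb and Junb encode subunits of the AP-1 transcription factor, Egr1 a zinc finger factor, Npas4 a neuron-specific factor tied to calcium entry, and Nr4a1 an orphan nuclear receptor. Arc, Homer1 and Bdnf act at the synapse: Arc drives the removal of AMPA receptors, Homer1 scaffolds metabotropic glutamate receptors and has a short activity-induced form, and Bdnf encodes a secreted growth factor. Dusp1 encodes a phosphatase that switches off MAP kinases and so limits the signal. PTBP1, the RNA-binding protein that the vectors targeted, keeps many exons out of mRNA and is largely absent from mature neurons.

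The members lie on different chromosomes of the mouse build mm10 except for Arc and Nr4a1, which share chromosome 15. Fos spans 85473890 to 85477273 on chromosome 12, Fosb 19302696 to 19310051 on chromosome 7 and Junb 84976910 to 84978718 on chromosome 8. Npas4 spans 4984355 to 4990316 on chromosome 19 and Nr4a1 101266846 to 101274795 on chromosome 15. Arc spans 74669083 to 74672570 on chromosome 15, Bdnf 109674700 to 109727007 on chromosome 2, Homer1 93303757 to 93405129 on chromosome 13 and Dusp1 26505590 to 26561499 on chromosome 17. The Dusp1 span reaches beyond the promoter window printed below (26508423 to 26508722), so it is longer than the transcript that starts there. The rebuilt exon bins of Dusp1 also differed in number from the authors' (12 and 10). Counts were summed over the exons of each gene, which come to at most 11508 bases (Homer1).

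The promoters of 4 members are printed here because CREB-type sites are a textbook feature of several immediate early gene promoters. They are RefSeq windows of the build GRCm38.p6, from 250 bases before to 50 bases after the start, written 5′ to 3′ on the strand of the gene. Capitals mark TGACG, the core of the cyclic AMP response element, on either strand (CGTCA where it lies on the other strand), and TGACGTCA, the full element, which contains the core on both strands. The Fos window lies at chr12:85473640-85473939 on the plus strand, that of Npas4 at chr19:4989922-4990221 on the minus strand, that of Dusp1 at chr17:26508423-26508722 on the minus strand and the first of Homer1 at chr13:93303507-93303806 on the plus strand.
Fos: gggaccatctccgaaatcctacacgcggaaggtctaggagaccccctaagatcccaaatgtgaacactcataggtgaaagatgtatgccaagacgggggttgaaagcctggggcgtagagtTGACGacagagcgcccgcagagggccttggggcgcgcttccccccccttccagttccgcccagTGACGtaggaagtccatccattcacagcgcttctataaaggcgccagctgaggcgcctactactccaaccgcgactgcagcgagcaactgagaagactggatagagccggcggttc
Npas4: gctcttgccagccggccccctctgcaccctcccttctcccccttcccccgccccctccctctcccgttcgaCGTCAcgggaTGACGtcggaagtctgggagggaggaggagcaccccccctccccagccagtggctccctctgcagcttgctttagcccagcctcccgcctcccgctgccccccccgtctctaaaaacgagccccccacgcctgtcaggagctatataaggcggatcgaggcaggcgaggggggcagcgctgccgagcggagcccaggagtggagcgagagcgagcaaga
Dusp1: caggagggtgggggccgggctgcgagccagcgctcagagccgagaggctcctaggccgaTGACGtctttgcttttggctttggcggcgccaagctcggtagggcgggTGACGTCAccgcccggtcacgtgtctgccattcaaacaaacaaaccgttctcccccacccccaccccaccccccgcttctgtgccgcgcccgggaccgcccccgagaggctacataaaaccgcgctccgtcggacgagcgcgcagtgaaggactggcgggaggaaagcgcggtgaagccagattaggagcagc
Homer1: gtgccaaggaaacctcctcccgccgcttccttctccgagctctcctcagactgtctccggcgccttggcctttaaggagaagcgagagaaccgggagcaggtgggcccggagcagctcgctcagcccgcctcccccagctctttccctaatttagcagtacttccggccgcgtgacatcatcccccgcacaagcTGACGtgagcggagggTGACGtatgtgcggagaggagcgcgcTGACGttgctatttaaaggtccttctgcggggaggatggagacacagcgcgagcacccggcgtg

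The table lists 15 windows of 8 members and none of Egr1 or Arc, and 8 of the 15 hold TGACG on either strand, against 20.8% of all 32851 windows. Several of the 15 windows are of Bdnf, so the windows do not stand for separate genes. Of the Bdnf windows only that at 109692186 to 109692485 on chromosome 2 holds TGACG, with 1 match. The counts of matches were 2 in the windows of Fos and Npas4, 3 in that of Dusp1 and the first of Homer1, and 4 in that of Nr4a1. Those of Fosb and Junb held 1 each, and the second of Homer1 held 0. The full element TGACGTCA was found in 1 member window, that of Dusp1, and in 1.79% of all windows. TATAAA, searched on the gene's own strand, was found in 2 member windows, those of Fos and Junb, and in 8.32% of all. The CArG box bound by SRF was in none of these 15 windows and in 1.63% of all. A box outside the windows would not be seen, and Egr1 and Arc have no window here. The absence of matches thus does not show that the members lack the box. All these motif counts are matches of letters within 300 bases and were not set against any measurement of binding.

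The libraries held 34339355 to 46544178 gene counts in silencing and 18288627 to 39056655 in overexpression, with 14841 to 17908 and 19893 to 21456 genes detected. Levels are given as CPM, the usual depth-scaled count, on library sizes adjusted by the trimmed mean of M values. The targeted gene was checked first. Ptbp1 had 136 CPM in PTBP1 OE replicate 1, 143 in replicate 2, 158 in replicate 3, 129 in replicate 4 and 118 in replicate 5, against 17.2, 13.5, 9.96 and 12.3 CPM in the control libraries. It was higher in PTBP1 OE by 3.34 ± 0.172 on the log2(CPM + 0.5) scale (SE; exact two-sided permutation p = 0.0159, the smallest these groups allow). In silencing Ptbp1 had 6.57, 0.101, 0.588 and 13.1 CPM in the Ptbp1 shRNA-labelled libraries, against 3.38, 0.930, 6.72, 0.349 and 9.11 CPM in the scrambled shRNA libraries. Parts of its exons overlap genes on the opposite strand: Plppr3 over 251 bases, Gm17134 over 437 and E130317F20Rik over 85. The silencing groups overlapped widely (difference -0.18 ± 1.26 on the log2(CPM + 0.5) scale; exact two-sided permutation p = 0.921). The means stood the other way round, at 5.09 ± 6.10 CPM in the Ptbp1 shRNA-labelled libraries and 4.10 ± 3.76 CPM in scrambled shRNA, and edgeR's log2 fold change was 0.31 ± 1.27 (adjusted p = 0.961). Ptbp1 thus had no settled direction in silencing, and Ptbp1 shRNA-labelled replicate 4 had the highest value of all 9, so no direction below rests on a measured loss of Ptbp1. Superficial excitatory neuron markers, 13 genes, summed to 1856 to 3010 CPM in the Ptbp1 shRNA-labelled libraries and 2874 to 4924 CPM in scrambled shRNA, and to 2438 to 3361 CPM in PTBP1 OE and 2988 to 3471 CPM in control. In silencing the 11 astrocyte markers summed to 409 to 994 CPM in the Ptbp1 shRNA-labelled libraries and 890 to 1376 CPM in scrambled shRNA. The 10 microglia markers summed to 1.43 to 18.2 CPM in the Ptbp1 shRNA-labelled libraries and 7.52 to 26.3 CPM in scrambled shRNA, and the 10 vessel markers to 15.7 to 173 CPM in the Ptbp1 shRNA-labelled libraries and 13.3 to 72.4 CPM in scrambled shRNA. C1qa of microglia and Cldn5, Kdr and Kcnj8 of vessels had no count in any silencing library. The part of these cells in the silencing results was not tested. No marker of any of the 7 lists passed the test in either experiment. In silencing no gene at all passed, so this says nothing about cell composition there. In silencing 3 of 10 microglia and 3 of 10 vessel markers were tested. Of the markers tested there, 10 of 13 superficial excitatory neuron and 10 of 11 interneuron markers were lower in the Ptbp1 shRNA-labelled libraries. So were 5 of 7 hippocampal neuron, 7 of 10 astrocyte, 6 of 7 oligodendrocyte and 2 of 3 microglia markers. All 3 vessel markers tested were higher.

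None of the 10 genes passed the test in PTBP1 OE against control. Of the 10 members 3 were higher and 7 lower in PTBP1 OE, with log2 fold changes of -0.36 (Arc) to 0.16 (Fosb) and a median of -0.09, beside a median of 0.00 over all 16480 genes tested. By edgeR's quasi-likelihood F test, Benjamini-Hochberg adjusted over all genes, no member passed 0.05, where 0.0425% of all genes passed. No member reached an unadjusted p of 0.05 either, which 4.78% of all genes did, and the PTBP1 OE and control values overlapped for every member, whereas they did not overlap for 1.81% of all genes. Adjusted p-values of the members lay between 0.974 and 1.000.

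Among the transcription factors, Fos had 2.61, 5.19, 14.4, 3.35 and 6.32 CPM in PTBP1 OE replicates 1 to 5, against 7.37, 4.59, 6.62 and 6.75 CPM in control. PTBP1 OE held both the highest and the lowest library, and the means were all but the same, 6.36 ± 4.70 in PTBP1 OE and 6.33 ± 1.21 CPM in control (SD, n = 5 and 4; log2 fold change -0.01 ± 0.41, SE). Fosb had 8.50, 11.8, 12.7, 8.48 and 9.98 CPM in PTBP1 OE and 10.4, 7.72, 10.9 and 7.86 CPM in control, a difference of 0.16 ± 0.18 on the log2 scale. Junb averaged 7.80 ± 2.03 CPM in PTBP1 OE and 7.31 ± 1.57 CPM in control. The AP-1 subunits were thus all present at modest levels, with ranges that overlapped between the groups.

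Egr1 was the most abundant transcription factor of the set. It had 241, 292, 371, 258 and 254 CPM in PTBP1 OE and 286, 306, 319 and 285 CPM in control, with means of 283 ± 52.8 and 299 ± 16.4 CPM. The 95% interval of its fold in PTBP1 OE over control ran from 0.798 to 1.12. Npas4 had 2.31, 9.24, 9.79, 2.98 and 4.2 CPM in PTBP1 OE and 8.64, 3.6, 6.67 and 7.48 CPM in control, and its interval was wide, from 0.464 to 1.6. PTBP1 OE held the 2 highest libraries for Npas4 and 3 toward the low end. Nr4a1 averaged 21.8 ± 5.77 CPM in PTBP1 OE and 25.9 ± 6.58 CPM in control (log2 fold change -0.25 ± 0.20).

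Of the synaptic effectors, Arc had 16.1, 26, 41.5, 22 and 19.8 CPM in PTBP1 OE, against 24.7, 36.9, 32.0 and 34.8 CPM in control. In PTBP1 OE 4 libraries lay below 3 of the 4 control libraries, and replicate 3 lay above all of them. The log2 fold change of Arc was -0.36 ± 0.23 (unadjusted p = 0.139, adjusted p = 0.974), with an interval of the fold from 0.554 to 1.10. Homer1 was the steadiest member, at 122, 127, 101, 107 and 110 CPM in PTBP1 OE and 110, 101, 117 and 115 CPM in control, and its interval of the fold was the narrowest of the 10, from 0.896 to 1.17. Bdnf had 10.3, 18.2, 18.9, 16.9 and 17.1 CPM in PTBP1 OE and 19.3, 17.7, 15.4 and 17.7 CPM in control, so that 1 PTBP1 OE library stood low and the rest lay within the control range. Dusp1 had 33.3, 32.6, 47.6, 34.2 and 33.4 CPM in PTBP1 OE and 47.5, 41.7, 34.5 and 36.1 CPM in control. For Dusp1 4 PTBP1 OE libraries lay below every control library, and replicate 3 lay just above the highest.

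**Figure D1:**
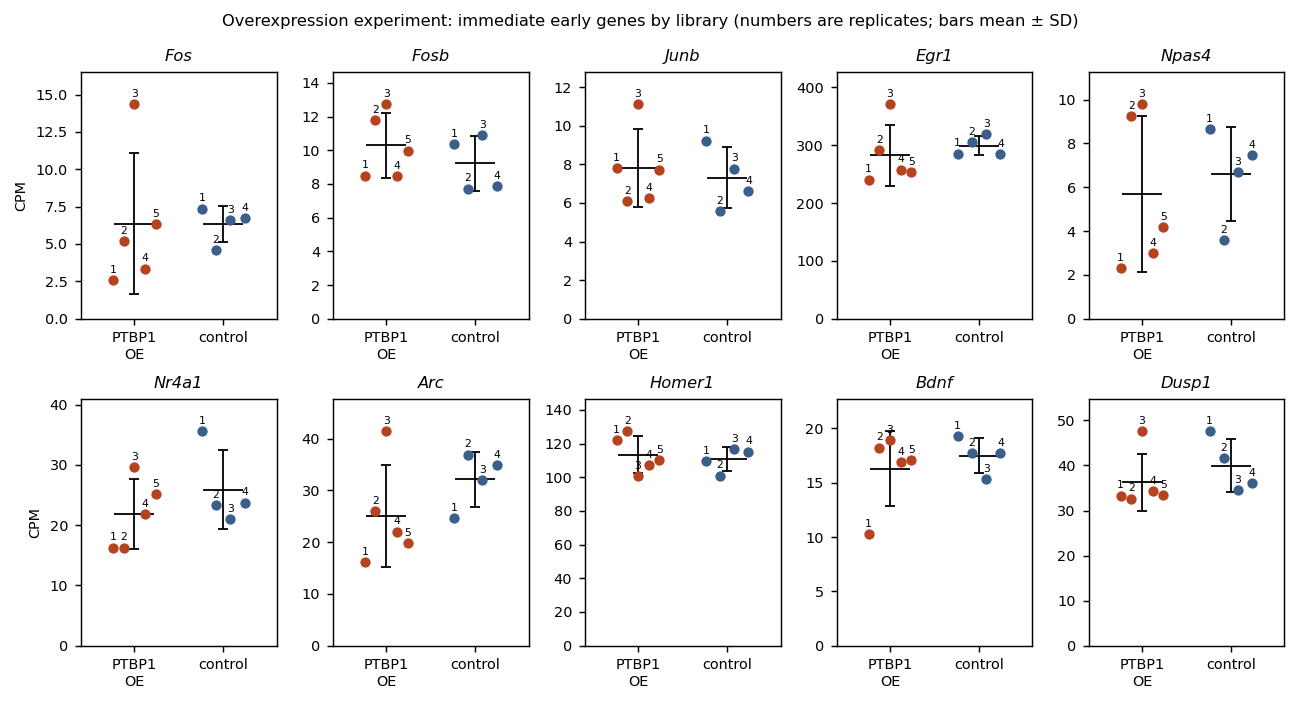
CPM (y axes, linear from 0) of the 10 genes in the 5 PTBP1 OE libraries (left of each panel) and the 4 control libraries (right), with replicate numbers at the points and bars for mean ± SD. PTBP1 OE replicate 3 is the highest point for 7 genes, among them Fos at 14.4 CPM and Arc at 41.5 CPM, and the groups overlap for all 10.

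Single PTBP1 OE libraries held most of the extreme values. PTBP1 OE replicate 3 had the highest level of all 9 libraries for 7 members (Fos, Fosb, Junb, Egr1, Npas4, Arc and Dusp1), whereas 13.8% of all genes tested were highest there. It was also the lowest library for Homer1. PTBP1 OE replicate 1 was the lowest for 6 members (Fos, Egr1, Npas4, Nr4a1, Arc and Bdnf), again beside 13.8% of all genes. Replicate 1 was the deepest library of the experiment and replicate 3 held 21454440 counts, within the range of the control libraries. Of the 13 superficial excitatory neuron markers 7 were also lowest in PTBP1 OE replicate 1. Of 38 other immediate early genes 11 were highest in PTBP1 OE replicate 3 and 5 lowest in replicate 1. Of 15 acute stress and heat shock genes tested 5 were highest in PTBP1 OE replicate 3. Of 18 late activity-regulated genes 7 were lowest in PTBP1 OE replicate 1, among them the member Bdnf, already counted above. Of 6 microglia markers 3 were lowest there and 3 highest in replicate 3. The part of depth or of these markers in the ranks was not tested. Without PTBP1 OE replicate 3 the log2 fold change of Fos was -0.55 and that of Arc -0.62 (unadjusted p = 0.00313, adjusted p = 0.978), and that of Junb turned to -0.08. Egr1 then had a log2 fold change of -0.20 (unadjusted p = 0.0315) and Dusp1 one of -0.27 (unadjusted p = 0.0411), and no adjusted p of a member passed. Without both replicates 1 and 3, a setting chosen after seeing the data, Arc had a log2 fold change of -0.50 and an adjusted p of 1.000.

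The spread of a gene between libraries of 1 group can be read from edgeR's biological coefficient of variation, set against the trend of genes of the same abundance. In overexpression 7 of the 10 members lay above the trend, as did 33.7% of all genes. The ratio to the trend was 1.71 for both Fos and Npas4, 1.52 for Arc and 1.29 for Nr4a1, and these genes stood at the 98.4th, 98.4th, 96.7th and 90.9th percentile of all genes by that ratio. Homer1 lay below the trend, at 0.830 of it. In silencing 2 of 10 members lay above the trend, beside 36.7% of all genes, and there the trend itself was high.

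Fos was set against each of the other 9 members over the 9 libraries of each experiment on the log2(CPM + 0.5) scale, 18 relations in all. None passed Benjamini-Hochberg adjustment. In overexpression the highest was with Npas4 (Pearson r = 0.82, exact permutation p = 0.0032, adjusted p = 0.0578; Spearman rho = 0.83, p = 0.00827, adjusted p = 0.149), and it was 0.71 without PTBP1 OE replicates 1 and 3, the libraries farthest from the median of Fos. With Egr1 r was 0.81 (exact permutation p = 0.0103, adjusted p = 0.0929) and rho 0.57 (exact permutation p = 0.121, adjusted p = 0.239). Without those libraries r with Egr1 was 0.29. They were picked by their Fos values, and leaving them out narrows the range of Fos, which can by itself lower r. Homer1 was the only member with a negative r in overexpression, at -0.40 (exact permutation p = 0.283, adjusted p = 0.392; rho = -0.32, p = 0.410, adjusted p = 0.568), and it was 0.31 without those libraries. Computed on deviations from the group means, r with Npas4 was 0.81 (exact permutation p = 0.00394, adjusted p = 0.0617; rho = 0.77, p = 0.0214, adjusted p = 0.166).

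**Figure D2:**
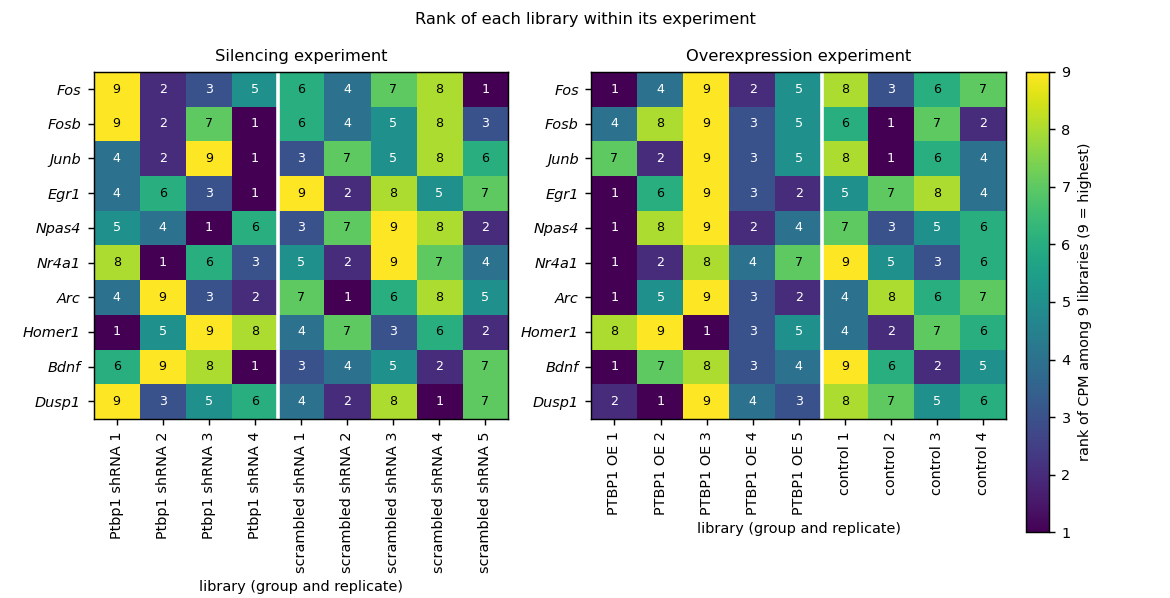
Rank of the CPM of each gene (rows) among the 9 libraries (columns) of the silencing and the overexpression experiment, 9 being the highest; the white line parts the Ptbp1 shRNA-labelled libraries or PTBP1 OE, on its left, from scrambled shRNA or control. The PTBP1 OE 3 column holds rank 9 for 7 genes and the PTBP1 OE 1 column rank 1 for 6, while no column of the silencing experiment holds more than 4 of either.

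Silencing gave the same count of calls from much noisier data. Of the 10 members 6 were higher and 4 lower in the Ptbp1 shRNA-labelled libraries, with log2 fold changes of -1.18 (Npas4) to 0.93 (Bdnf) and a median of 0.05, beside 0.03 over all 14656 genes tested. No member passed an adjusted p of 0.05, and neither did any other gene (0% of all genes in edgeR, 1639 genes or 11.2% at an unadjusted p of 0.05, and 709 genes past the threshold in DESeq2). Bdnf was the 1 member with an unadjusted p under 0.05. The groups overlapped for every member, whereas 4.84% of all genes had groups that did not overlap.

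Bdnf had 50.9, 126, 115 and 30.0 CPM in the Ptbp1 shRNA-labelled libraries, against 37.7, 40.7, 46.9, 34.1 and 52.4 CPM in scrambled shRNA. Replicates 2 and 3 stood above every scrambled library, replicate 1 lay within their range and replicate 4 was the lowest of all 9. The means were 80.4 ± 47.2 CPM in the Ptbp1 shRNA-labelled libraries and 42.3 ± 7.32 CPM in scrambled shRNA (SD, n = 4 and 5), a fold of 1.90 with a 95% interval of 1.04 to 3.48 (unadjusted p = 0.0398, adjusted p = 0.421). Leaving out replicate 2 brought the log2 fold change to 0.62 and the adjusted p to 0.666, and leaving out replicate 4 brought them to 1.2 and 0.213.

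Egr1 had 172, 193, 159 and 111 CPM in the Ptbp1 shRNA-labelled libraries, against 263, 150, 222, 187 and 219 CPM in scrambled shRNA. Its log2 fold change was -0.39 ± 0.24 (adjusted p = 0.599), and the lower mean in the Ptbp1 shRNA-labelled libraries was accompanied by overlap of 3 of their 4 libraries with scrambled ones. Homer1 had 259, 327, 388 and 365 CPM in the Ptbp1 shRNA-labelled libraries and 322, 335, 320, 329 and 319 CPM in scrambled shRNA. The scrambled libraries lay within 1.05-fold of each other for Homer1 and the Ptbp1 shRNA-labelled libraries within 1.5-fold, with means of 335 ± 56.7 and 325 ± 6.95 CPM. Dusp1 averaged 64.1 ± 26.8 CPM in the Ptbp1 shRNA-labelled libraries and 54.3 ± 24 CPM in scrambled shRNA.

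The other 6 members were low and erratic in both silencing groups. Fos had 11.1, 0.126, 1.54 and 2.72 CPM in the Ptbp1 shRNA-labelled libraries, against 3.69, 2.55, 4.76, 5.17 and 0.0649 CPM in scrambled shRNA, which stand for 5 to 523 and 2 to 237 counts. Its highest library exceeded its lowest by 88.1-fold among the Ptbp1 shRNA-labelled libraries and by 79.6-fold among scrambled shRNA. Fosb had 15.2, 0.604, 10.03 and 0.131 CPM in the Ptbp1 shRNA-labelled libraries and 8.04, 3.46, 4.35, 12.3 and 2.34 CPM in scrambled shRNA. Libraries of 1 group thus differed by up to 116-fold for Fosb, against at most 5.51-fold for any member in overexpression, where Fos varied most.

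Junb had 0.848, 0.176, 4.65 and 0.0523 CPM in the Ptbp1 shRNA-labelled libraries and 0.494, 1.84, 0.953, 1.90 and 1.65 CPM in scrambled shRNA. Npas4 had 1.25, 0.453, 0.0560 and 1.41 CPM in the Ptbp1 shRNA-labelled libraries and 0.234, 1.67, 4.53, 2.40 and 0.195 CPM in scrambled shRNA, 2 to 59 counts against 6 to 195. Its fitted change was the largest of the set, with a wide error (log2 fold change -1.18 ± 1.33, adjusted p = 0.819), and it was -0.50 without scrambled shRNA replicate 3. Nr4a1 had 7.97, 0.377, 5.27 and 1.07 CPM in the Ptbp1 shRNA-labelled libraries and 4.06, 1.05, 10.8, 6.95 and 3.05 CPM in scrambled shRNA. Arc had 2.59, 14.4, 1.77 and 0.628 CPM in the Ptbp1 shRNA-labelled libraries and 10.9, 0.405, 5.00, 11.5 and 4.41 CPM in scrambled shRNA, so that Ptbp1 shRNA-labelled replicate 2 was the highest of all 9 and scrambled shRNA replicate 2 the lowest. The log2 fold change of Arc was -1.97 without Ptbp1 shRNA-labelled replicate 2 and -0.049 without Ptbp1 shRNA-labelled replicate 4. That of Nr4a1 was -1.21 without Ptbp1 shRNA-labelled replicate 1 and -0.041 without scrambled shRNA replicate 3. Differences smaller than several-fold were not detectable for these genes: their 95% intervals of the fold reached from 0.0596 at the lowest to 7.84 at the highest.

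**Figure D3:**
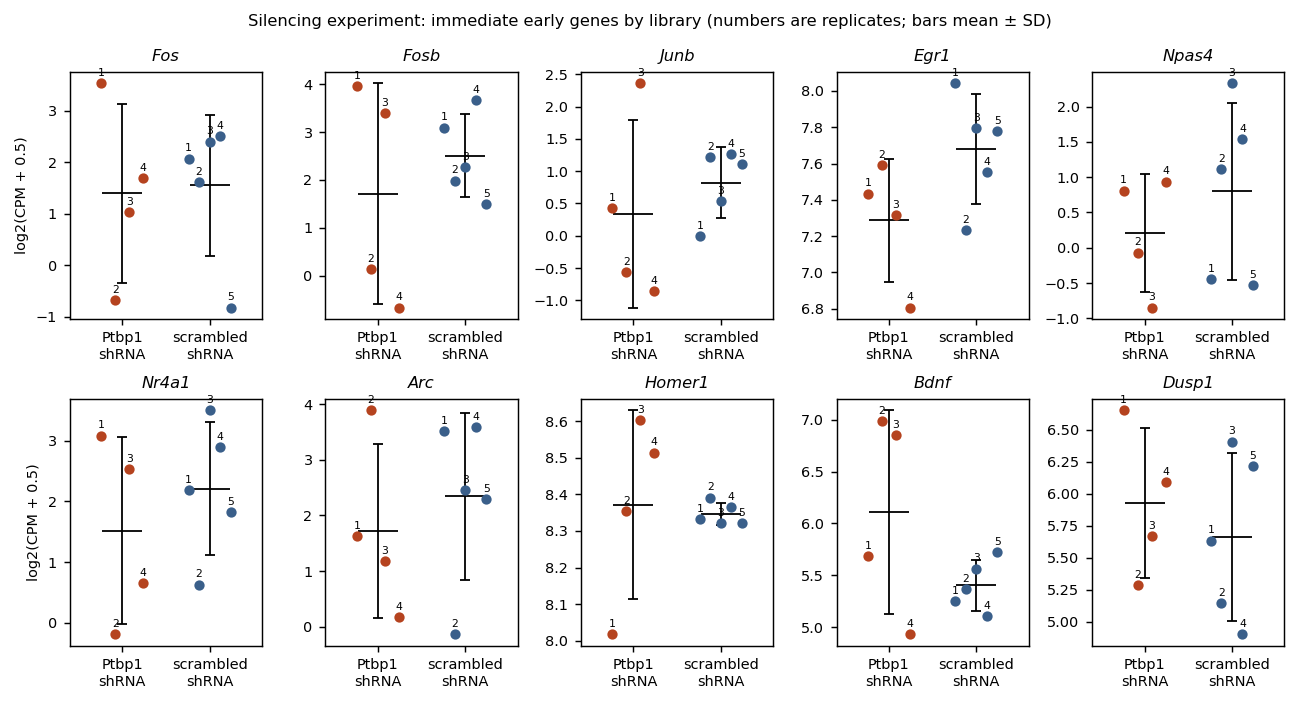
Levels of the 10 genes as log2(CPM + 0.5) (y axes, each with its own range) in the 4 libraries labelled Ptbp1 shRNA (left of each panel) and the 5 scrambled shRNA libraries (right), with replicate numbers at the points and bars for mean ± SD. Homer1 of scrambled shRNA spans 319 to 335 CPM, whereas Fos spans 0.0649 to 5.17 CPM in the same libraries.

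Whether the 2 responses differ was tested over all 18 libraries, as the change in PTBP1 OE against control minus the change in the Ptbp1 shRNA-labelled libraries against scrambled shRNA. No member passed (0.225% of 17779 genes did, 40 genes, a count that ran from 1, without PTBP1 OE replicate 5 or control replicate 4, to 174, without Ptbp1 shRNA-labelled replicate 4). Bdnf had the smallest p, with a difference of -1.03 ± 0.46 on the log2 scale (unadjusted p = 0.0379, which 14.6% of all genes reached at 0.05; adjusted p = 0.305). For Homer1 the difference was 0.00 ± 0.19, and its 95% interval ran from -0.39 to 0.40. For Fos, Fosb, Junb and Npas4 the standard errors were 1.17 to 1.34, and the intervals included differences of several-fold either way.

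**Figure D4:**
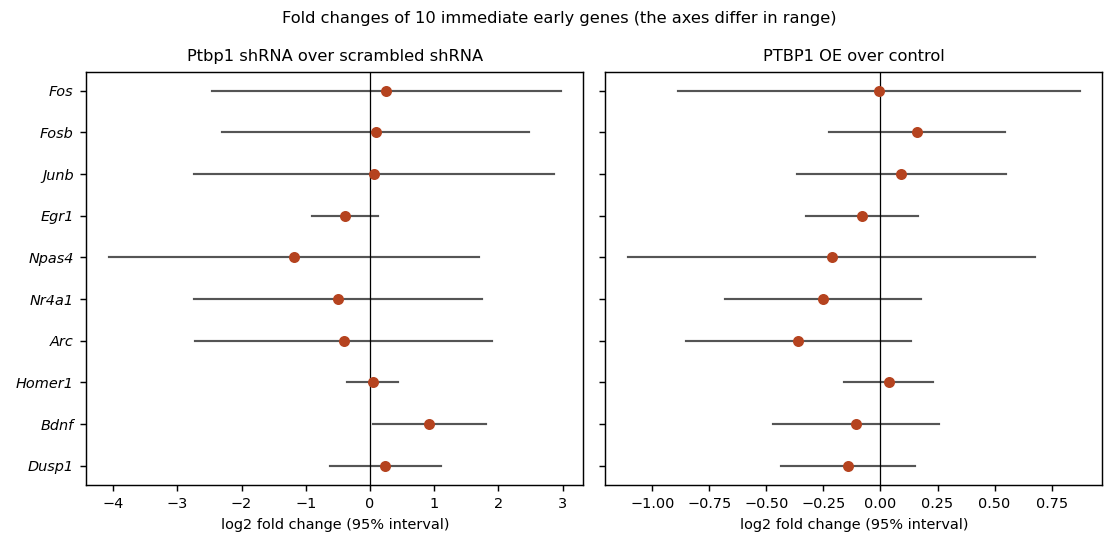
Log2 fold change with its 95% interval (x axes, which differ in range) for each gene (rows), the Ptbp1 shRNA-labelled libraries over scrambled shRNA on the left and PTBP1 OE over control on the right. Every interval covers 0 except that of Bdnf in silencing (0.05 to 1.80), and the silencing intervals of Fos, Fosb, Junb, Npas4, Nr4a1 and Arc are the widest.

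Per kilobase of exon, Egr1, Dusp1, Nr4a1, Junb, Fos and Npas4 held the same place by mean in both overexpression groups. Egr1 led with 63.1 ± 11.8 CPM per kb in PTBP1 OE and 66.7 ± 3.66 in control, and its range overlapped with no other member. Dusp1 (11.6 and 12.8), Homer1 (9.85 and 9.61), Nr4a1 (8.81 and 10.5) and Arc (8.21 and 10.5) followed in PTBP1 OE and control. Exon lengths come from the rebuilt annotation, which did not match the authors' bins for Dusp1 and Homer1, so the places of these genes are uncertain. The order of Homer1, Nr4a1 and Arc was reversed in control. Among Dusp1, Homer1, Nr4a1 and Arc, neighbours in the order of each group had overlapping ranges. In control Dusp1 (11.1 to 15.2) and Homer1 (8.78 to 10.1), not neighbours there, did not overlap. Junb came next at 4.31 and 4.04 CPM per kb, and in control its range (3.09 to 5.11) did not overlap with that of Homer1. Fosb, Fos and Bdnf stood between 2.44 and 2.82 CPM per kb in both groups and could not be ordered, and Npas4 was last at 1.58 and 1.82. Within silencing Egr1 (35.4 and 46.4 CPM per kb in the Ptbp1 shRNA-labelled libraries and in scrambled shRNA), Homer1 (29.1 and 28.2), Dusp1 (20.6 and 17.4) and Bdnf (12.9 and 6.81) stood above the other 6, whose means were 0.219 to 2.11. A level in one experiment was not tested against the other, since the experiment, the vectors and the library set cannot be told apart. In bulk RNA of this kind fewer cells of a type and less RNA per cell cannot be told apart either.

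Exon bins, the stretches into which the authors' flattened annotation divides a gene, show where along a gene the counts lay. The coordinates were rebuilt here, and the number of bins matched for all members but Homer1 (27 in the files, 26 rebuilt) and Dusp1 (10 and 12). In the Ptbp1 shRNA-labelled libraries 66.7 to 100% of the bin counts of Fos fell in its 3′-most bin, and in scrambled shRNA 64.9 to 100%. The 66.7% is 2 of 3 counts, in Ptbp1 shRNA-labelled replicate 2, and scrambled shRNA replicate 5 held 1 Fos bin count in all. In PTBP1 OE the share was 32.6 to 49.5% and in control 35.2 to 48.5%. Bdnf had 98.1 to 100% there in the silencing libraries and 86.9 to 95.1% in the overexpression libraries. For Arc the share was 12.6 to 100% over the silencing libraries, some of which held as few as 8 Arc bin counts, and 44.0 to 53.7% over the overexpression libraries. Within each experiment the ranges of both groups overlapped for these genes, and between experiments those of Fos and Bdnf did not.

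**Figure D5:**
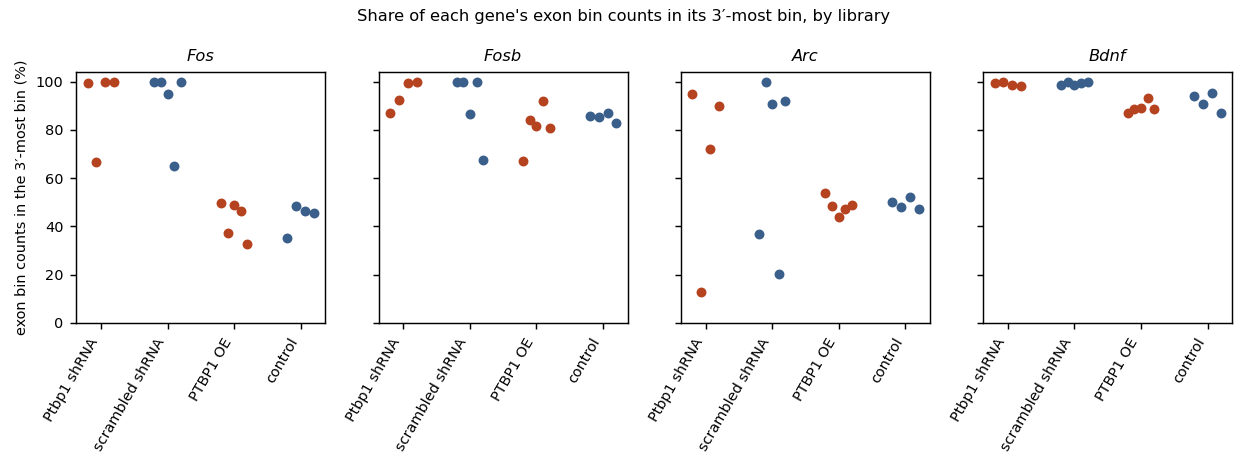
Percent of the exon bin counts of Fos, Fosb, Arc and Bdnf that fall in the 3′-most bin (y axis, 0 to 100%) in each library, by group, with Ptbp1 shRNA and PTBP1 OE each left of scrambled shRNA and control. For Fos the silencing libraries lie at 64.9% or more and the overexpression libraries at 49.5% or less. The Fos point at 66.7% rests on 3 counts, and 1 point each of Fos and Fosb at 100% on 1 count.

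No exon bin of a member passed the test for its use relative to the rest of its gene. In silencing 32 bins of 5 members were tested and none passed edgeR's diffSpliceDGE with adjustment over all bins (0.0012% of 83164 bins did). In all 1 member bin had an unadjusted p under 0.05, as did 1.96% of all bins: bin 6 of Egr1, 28 bases at its 3′ end, held 5.98% ± 5.18 of the gene's bin counts in the Ptbp1 shRNA-labelled libraries and 2.12% ± 0.512 in scrambled shRNA (adjusted p = 1.000). By library the share was 3.64, 13.7, 3.41 and 3.11% in the Ptbp1 shRNA-labelled libraries, with replicate 2 far above the others, and 1.94, 2.04, 2.48, 2.74 and 1.42% in scrambled shRNA. Without that library the log2 use relative to the gene was 0.70, against 1.73 with it, and the unadjusted p was 0.488. Next came bin 4 of Egr1, with 3.99% ± 2.40 in the Ptbp1 shRNA-labelled libraries and 7.94% ± 2.66 in scrambled shRNA (unadjusted p = 0.157). In overexpression 54 bins of 8 members were tested and none passed either threshold (0.034% of 117580 bins passed the adjusted and 1.37% the unadjusted one). The smallest p-values there were those of bin 9 of Dusp1 (0.0988) and bin 14 of Homer1 (0.121).

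Homer1 makes a short, activity-induced mRNA (Homer1a) that ends early. Bin 14 is taken here as the files number it, a choice made after seeing the data; because the bins of Homer1 did not match the rebuilt ones, it is not certain that this bin is the end of Homer1a. Bin 14 held 5.05, 5.93, 6.21, 4.33 and 5.77% of the Homer1 bin counts in PTBP1 OE, against 5.21, 3.65, 3.82 and 4.91% in control. In PTBP1 OE 3 libraries lay above every control library. The means were 5.46% ± 0.761 in PTBP1 OE and 4.40% ± 0.777 in control (exact two-sided permutation p = 0.0952, adjusted p = 0.495 over 12 shares). In silencing the shares were 4.75, 4.07, 18.2 and 3.02% in the Ptbp1 shRNA-labelled libraries and 4.12, 11.99, 5.53, 6.03 and 5.76% in scrambled shRNA (exact two-sided permutation p = 0.873).

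Bdnf splices 1 of several 5′ exons, each with its own promoter, to a shared coding exon, and the 5′ exons were numbered here by their order in the rebuilt annotation. Exon I, known for its response to activity, held 4.05, 3.91, 1.01, 1.35 and 2.09% of the Bdnf bin counts in PTBP1 OE and 0.469, 0, 0 and 2.23% in control. These shares stand for 2 to 12 counts per PTBP1 OE library and 0 to 5 per control library (means 2.48% ± 1.42 and 0.675% ± 1.06; exact two-sided permutation p = 0.0794, adjusted p = 0.495). Exon IV, the other activity-responsive one, averaged 1.99% ± 1.64 in PTBP1 OE and 2.44% ± 1.82 in control. In silencing exon I had 0.846% ± 0.801 in the Ptbp1 shRNA-labelled libraries and 0.171% ± 0.319 in scrambled shRNA (exact two-sided permutation p = 0.175). Exon IV went the other way there, at 0.0617% ± 0.123 in the Ptbp1 shRNA-labelled libraries and 0.449% ± 0.505 in scrambled shRNA (exact two-sided permutation p = 0.143). Over all silencing libraries these shares stand for 42 counts of exon I and 25 of exon IV. Exons V, VII and VIII had 0 counts in every library, which allows a share of up to 0.0291% in silencing and 0.154% in overexpression (3 counts of the summed bin counts, covering counting error only). None of the 12 shares tested passed. The smallest permutation p these groups allow was 0.0159, so 1 share alone could not have passed after adjustment over 12. The segment that marks the short form of Fosb has no bin of its own in the files and was not analysed here.

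The wider pathway was described with 5 lists, of which no gene passed the test in either experiment. Of 38 other immediate early genes 32 were tested in silencing, 16 higher and 16 lower, and all 38 in overexpression, 21 higher and 17 lower. Of 32 upstream calcium, kinase and transcription factor genes 22 were lower in each experiment (median log2 fold change -0.13 in silencing and -0.08 in overexpression, beside 0.03 and 0.00 over all genes). Of the late activity-regulated genes, which include the member Bdnf, 9 were higher and 9 lower in silencing and 8 higher and 10 lower in overexpression. Partners, receptors and substrates of the members gave 13 higher and 12 lower in silencing and 11 higher and 14 lower in overexpression. Acute stress and heat shock genes gave 9 higher and 5 lower in silencing (median 0.30) and 11 higher and 4 lower in overexpression (median 0.05).

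Some list genes in silencing stood apart from the members, with groups that did not overlap. They were named for the smallest p of their lists in this same comparison, so the lack of overlap partly follows from the choice. Of all genes tested in silencing 4.84% had groups that did not overlap. Atf3, an immediate early factor also induced by cell stress and injury, had 4.96 to 27.3 CPM in the Ptbp1 shRNA-labelled libraries and 0 to 0.153 CPM in scrambled shRNA (log2 fold change 7.94 ± 1.42, adjusted p = 0.0625). Cdkn1a, a late gene of the list and a cell cycle inhibitor induced by p53, had 61.0 to 255 CPM in the Ptbp1 shRNA-labelled libraries and 11.7 to 28.4 CPM in scrambled shRNA (adjusted p = 0.0625). Scg2, a secretory granule protein, averaged 243 ± 87.8 CPM in the Ptbp1 shRNA-labelled libraries and 61.7 ± 36.0 CPM in scrambled shRNA (adjusted p = 0.0816). None of these passed in edgeR, but all 3 did in DESeq2, in limma-voom and in the fit of all 18 libraries, and Cdkn1a also did with no filter and without Ptbp1 shRNA-labelled replicate 4 (adjusted p = 0.0356). Klf10, a zinc finger immediate early gene, had 18.3 ± 2.51 CPM in the Ptbp1 shRNA-labelled libraries and 43.3 ± 11.2 CPM in scrambled shRNA (adjusted p = 0.224 in edgeR). It passed in DESeq2 (0.00162) and in the fit of all 18 libraries (0.00550), but not in limma-voom (0.273) or with no filter (0.281).

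Of the genes around the kinases, Ppp3cb, a catalytic subunit of calcineurin, had a log2 fold change of -0.79 ± 0.22 in silencing (adjusted p = 0.202) and -0.25 ± 0.07 in overexpression (adjusted p = 0.700). Crebbp, the coactivator of CREB, averaged 202 ± 18.2 CPM in the Ptbp1 shRNA-labelled libraries and 121 ± 16.0 CPM in scrambled shRNA (adjusted p = 0.208). Crtc2, another CREB coactivator, had 14.1 ± 1.89 CPM in PTBP1 OE and 8.07 ± 1.73 CPM in control (adjusted p = 0.211 in edgeR and 0.00545 in DESeq2). Homer2, the paralog of Homer1, averaged 233 ± 138 CPM in the Ptbp1 shRNA-labelled libraries and 464 ± 82.4 CPM in scrambled shRNA, and Mapk3, a kinase that Dusp1 can switch off, 46.6 ± 9.03 CPM in the Ptbp1 shRNA-labelled libraries and 84.5 ± 18.7 CPM in scrambled shRNA (adjusted p = 0.262 and 0.279). Hsp90aa1, a chaperone, averaged 4514 ± 881 CPM in the Ptbp1 shRNA-labelled libraries and 2916 ± 340 CPM in scrambled shRNA, and Hspa5, a chaperone of the endoplasmic reticulum, 123 ± 42.3 CPM in the Ptbp1 shRNA-labelled libraries and 63.8 ± 27.2 CPM in scrambled shRNA (adjusted p = 0.195 and 0.340). In DESeq2 and in the fit of all 18 libraries the adjusted p in silencing was 0.00120 and 0.00829 for Crebbp, 0.0301 and 0.00721 for Mapk3, and 0.0301 and 0.00538 for Hsp90aa1. For Ppp3cb (0.0549 and 0.00676) and Homer2 (0.124 and 0.0236) only the fit of all 18 libraries passed, and for Hspa5 neither did (0.152 and 0.0515). None of these 6 passed in limma-voom, with no filter or with 1 library left out. The remaining genes named by rule, Klf4, Amigo3, Cdkn1a, Baz1a, Dnm2, Dlg4, Hspa1a and Hspa1b, had adjusted p-values of 0.678 to 0.974 in overexpression.

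Genes whose level followed the mean standardised level of the 10 members most closely were picked by Pearson's r over the 9 libraries of each experiment. In overexpression they were Dohh (r = 0.98), Prrc1 (r = 0.95) and Psmd3 (r = 0.93) out of 13364 genes compared. In silencing they were Hdgf (r = 0.94) and Rnf32 (r = 0.93) out of 12346. The mean standardised level itself ran from -1.02 in PTBP1 OE replicate 1 to 1.17 in PTBP1 OE replicate 3. In silencing it ran from -0.65 in Ptbp1 shRNA-labelled replicate 4 to 0.52 in scrambled shRNA replicate 3. All points share the library and its depth, and these values are a description with no test.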

How the data were processed

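Per the labels, RNA-seq libraries from TRAP were made from 18 mice, 1 library per mouse. The authors deposited raw whole-number counts per Ensembl gene for each experiment and per exon bin for each library. The aligner STAR 2.5.3a, the counter HTSeq and the build mm10 are named in the submitters' processing notes; for the annotation release and strand setting the sources used here give nothing. Dusp1 shares 11 exonic bases with Ergic1 on the other strand, and Ptbp1 shares 251 with Plppr3, 437 with Gm17134 and 85 with E130317F20Rik, so reads there may not be told apart.

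Groups were taken from the treatment label. Using edgeR 4.0.16 (R 4.3.3), a separate model across all genes was built per experiment (filterByExpr, TMM, robust quasi-likelihood F test, Benjamini-Hochberg threshold 0.05). The standard error of a log2 fold change was taken from its F value, as its absolute size over root F. The difference between the responses was fitted over all 18 libraries, with 1 spread shared by both experiments. Exon bins were tested with diffSpliceDGE, as log2 use relative to the gene, and shares with exact two-sided permutation tests over all splits. Bin coordinates were rebuilt from GENCODE M21. Alternatives were RLE scaling, no filter, DESeq2 1.42.0, limma 3.58.1 voom with quality weights, a fit of all libraries, another pseudocount (1 in place of 0.5) and leaving out each library. The tests were run on simulated data first. P-values measure the spread between mice. The members, lists and rules were chosen with earlier results of these data known. From each list the rule names up to 3 called genes per direction and experiment, or the 2 with the smallest p where none was called. The rule for genes most like the members names 3 per experiment, of which 1 in silencing is not reported here.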

Additional observations from a re-analysis of the deposited data

Results flagged for a closer look

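Single libraries stood apart from their group for 3 of the 84 gene and group pairs checked, about the share that chance flags (1 in 20 groups). Arc had 14.4 CPM in Ptbp1 shRNA-labelled replicate 2, against 0.628 to 2.59 CPM in the other libraries of that label. Dusp1 had 47.6 CPM in PTBP1 OE replicate 3, against 32.6 to 34.2 CPM in the other PTBP1 OE libraries. Bdnf had 10.3 CPM in PTBP1 OE replicate 1, against 16.9 to 18.9 CPM in the others.

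By a test that gave all 18 libraries 1 shared spread, the responses of the experiments differed for 2 list genes that are no members. The common biological coefficient of variation was 90.1% in silencing and 22.3% in overexpression. A shared spread may thus understate that of silencing. In silencing fitted alone neither gene passed in edgeR (adjusted p = 0.0625 for both). The change in PTBP1 OE against control minus that in the Ptbp1 shRNA-labelled libraries against scrambled shRNA was -7.69 ± 1.58 on the log2 scale for Atf3 (adjusted p = 0.0469 in edgeR) and -2.31 ± 0.44 for Cdkn1a (adjusted p = 0.0394). Over the fits that leave out 1 of the 18 libraries the adjusted p ran from 0.0327 to 0.147 for Atf3, which passed in 6, and from 0.00547 to 0.116 for Cdkn1a, which passed in 8. With no filter on low counts the adjusted p was 0.0678 for Atf3 and 0.0402 for Cdkn1a. In DESeq2, which also shared 1 spread, it was 3.08e-06 and 0.000205. Fitted alone, Cdkn1a was higher in the Ptbp1 shRNA-labelled libraries (log2 fold change 2.67) and in PTBP1 OE (0.36, adjusted p = 0.678 in edgeR). Its difference was thus of size and not of direction in these estimates.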

How the results depend on the processing

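No member, member bin or share passed its threshold under any alternative run, leave-one-out fits included. For shares the permutation test allowed no p under 0.0159, so 1 share alone could not have passed after adjustment over 12. The lowest adjusted p of a member was 0.0745 (Bdnf in silencing, fit of all 18 libraries). Genes called in silencing were 0, against 11 with no filter, 709 in DESeq2, 69 in limma-voom, 1775 with all 18 libraries and 0 to 5 with 1 library left out. In overexpression 7 were called, against 39 in DESeq2, 0 with all 18 libraries and 6 to 9 with 1 left out. Bins of all genes called in silencing were 1, against 8 with limma and 0 to 3 with 1 library left out; genes called in the difference were 40, against 17 with no filter and 863 in DESeq2. The cause of these differences was not tested.

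Signs held in every alternative for 5 members in silencing (Egr1, Arc, Npas4, Nr4a1 and Bdnf) and 6 in overexpression (Fosb, Egr1, Arc, Npas4, Nr4a1 and Dusp1). With 1 library left out, log2 fold changes in silencing ran from -1.15 to 0.64 for Fos, -0.76 to 0.51 for Fosb, -1.92 to 0.46 for Junb, -0.040 to 0.15 for Homer1 and -0.060 to 0.45 for Dusp1. They ran from -1.97 to -0.049 for Arc, -1.21 to -0.041 for Nr4a1, -1.62 to -0.50 for Npas4 and -0.50 to -0.26 for Egr1. In limma-voom they were -0.28 for Fos, -0.78 for Fosb, -0.74 for Junb and -0.011 for Homer1. In overexpression they ran from -0.55 to 0.20 for Fos, -0.076 to 0.23 for Junb, -0.17 to 0.023 for Bdnf and -0.019 to 0.068 for Homer1, and from -0.50 (without PTBP1 OE replicate 3) to -0.0061 (without replicate 1) for Npas4, -0.39 to -0.061 for Nr4a1, -0.27 to -0.049 for Dusp1, -0.20 to -0.026 for Egr1 and -0.62 to -0.23 for Arc. Fos was at 0.0035 in DESeq2 and 0.0030 with all libraries, Homer1 at -0.0088 in limma-voom, and Junb at -0.13 without both PTBP1 OE libraries 1 and 3. Ptbp1 in silencing ran from -0.93 to 0.57, and had a log2 fold change of 0.31 in edgeR. Differences of share (percentage points) that changed sign ran from -0.013 to 0.035 for Bdnf exon VI and -2.74 to 2.32 for Homer1 bin 14 in silencing, and from -1.15 to 0.26 for Bdnf exon II and -1.10 to 0.23 for exon IV in overexpression.

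No paired analysis was possible because replicate numbers follow the order of the samples and pair no mice. The depth of 2 to 59 counts for Npas4 in the Ptbp1 shRNA-labelled libraries limits what the silencing experiment can show.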
